A study of Homo sapiens with 21 samples.

Results

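*NUCKS1* and *CBX5* were examined because their 3'UTRs were among those with the most clusters in the parental cytoplasm of a PAR-CLIP map of HNRNPK. They were chosen by a measured value, the count of their 3'UTR clusters in parental cytoplasm, where *CBX5* had 34 and *NUCKS1* had 32 among 6340 genes with a 3'UTR cluster and a median of 2. *LPP* (37 clusters) and *TEAD1* (36) stood above them, and *CDK6*, *TAOK1* and *UHMK1* (30 each) just below. That rank is therefore no finding. Across the 4 libraries, 344 of 778762 clusters carried one of the pair of gene names, 174 for *NUCKS1* and 170 for *CBX5*, and 194 of the 344 lay in the 3'UTR.

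MDA-MB-231, a human cell line from a triple-negative breast cancer, was used in its parental form and as a *KRT19* KO derivative made with CRISPR/Cas9. PAR-CLIP labels RNA with 4-thiouridine, crosslinks it to protein with long-wave ultraviolet light and reads the crosslinked uridines as T-to-C changes. According to the methods, cells of both genotypes were labelled and crosslinked, and the cytoplasm was collected and digested with RNase T1; how the nuclear libraries were made is not given in the sources used here. The labels give the antibody as one against HNRNPK/J, where HNRNPJ is a putative splice form of HNRNPK. Each of the 4 conditions had 1 library, so no difference below has a replicate check, no test between conditions was run, and the ranges in parentheses are exact 95% intervals of counting error only. Whether the *KRT19* KO line is 1 clone is not given in the sources used here. Because mRNA levels were not analysed, more RNA and more binding per RNA cannot be told apart. Levels below are shares of a library's own cluster reads, so they do not measure the amount of RNA bound in a fraction. The paper reports less HNRNPK in the cytoplasm of *KRT19* KO than of parental cells.

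HNRNPK is an RNA-binding protein with KH domains that prefers cytosine-rich stretches, moves between nucleus and cytoplasm, and acts on splicing, RNA stability and translation. The 3'UTR of an mRNA is a main landing platform for such proteins in the cytoplasm. *NUCKS1* encodes a chromatin-associated, DNA-binding nuclear phosphoprotein that takes part in homologous recombination. *CBX5* encodes HP1α, a chromodomain protein that binds methylated lysine 9 of histone H3 and is a core component of heterochromatin.

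Both genes lie on the minus strand (GRCh37). *NUCKS1* (ENSG00000069275) spans chr1:205681950-205719310 and its 3'UTR, in a single exon of transcript ENST00000367142, is 5458 nt long (chr1:205681950-205687407). *CBX5* (ENSG00000094916) spans chr12:54624726-54673917, and its 3'UTR in ENST00000209875 is 10813 nt long (chr12:54624726-54635538). A second *CBX5* transcript, ENST00000439541, ends after 1130 nt of the same 3'UTR. The sequences of all 194 3'UTR clusters were equal to GRCh37 at their positions.

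Clusters of the 4 libraries that overlapped by at least 1 nt were merged into sites, 43 in the *NUCKS1* 3'UTR and 63 in the *CBX5* 3'UTR. Sites are named here by the distance of their first nucleotide from the stop codon. The 3 sites with the most reads in each gene are shown because they weigh most in the read totals given below. Each line gives at most 30 nt around the crosslink mode of the strongest cluster, on the transcript strand, 5′ to 3′ and written as DNA, with runs of 3 or more cytosines in capitals.
NUCKS1 site 756 (chr1:205686521-205686550): tttaccaagaatccaaaaaaaaaaaaaCCC
NUCKS1 site 2843 (chr1:205684536-205684565): ctttctaaaacatctcctcatttcatattt
NUCKS1 site 3758 (chr1:205683621-205683650): tccataaattacacttttttttttcaaatt
CBX5 site 66 (chr12:54635444-54635473): ttctaCCCaCCCCtttctatcctaaacaca
CBX5 site 1121 (chr12:54634359-54634388): CCCCaaaatattaatgctcttCCCtttttc
CBX5 site 9777 (chr12:54625733-54625762): cattgcttaccactCCCCaaccaatCCCag
Each of the 3 *CBX5* sequences holds 2 runs of cytosines, CCC and CCCC. The leading *NUCKS1* sites did not look alike. Site 756 has a run of adenosines before its cytosines, and site 3758, the strongest of all, has a run of 10 thymidines and no CCC. The full sequence of the strongest cluster occurred once in GRCh37 for each of these 6 sites.

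The libraries held between 3252800 and 6216226 reads in clusters, and the fewest reads in a cluster were 5. Reads in 3'UTRs made up 31.6% of the cytoplasmic reads in parental cells and 47.4% in *KRT19* KO cells, against 5.35% and 5.43% of the nuclear reads, while reads in introns made up 42.3%, 23.0%, 67.0% and 59.7% in the same order. The nuclear RNA NEAT1 had 226.4 and 203.8 reads per 1000000 cluster reads (RPM) in the parental and *KRT19* KO cytoplasm against 789 and 1092 in the nuclei, whereas MALAT1, also a nuclear RNA, had 1229 and 842 against 888 and 548. The MALAT1 values did not separate the fractions as the labels name them. *KRT19* had a single cluster in each cytoplasm, of 7 reads in parental and 5 reads in *KRT19* KO cells, and none in the nuclei, too few to check the genotype.

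In the cytoplasm, the great majority of the reads of both genes lay in the 3'UTR. *NUCKS1* had 16142 3'UTR reads in the parental cytoplasm, 33621 in the *KRT19* KO cytoplasm, 380 in the parental nucleus and 191 in the *KRT19* KO nucleus. In RPM these were 2908 (2863 to 2953), 5409 (5351 to 5467), 107 (96.9 to 119) and 58.7 (50.7 to 67.7). The 2 cytoplasmic libraries thus stood far above the 2 nuclear ones, with the *KRT19* KO library highest in the cytoplasm and lowest in the nucleus. By 3'UTR reads *NUCKS1* ranked 3 of 6340 genes in parental and 2 of 6801 in *KRT19* KO cytoplasm. *CBX5* had 2551, 10563, 271 and 391 3'UTR reads in the same order, or 459.5 (442 to 478), 1699 (1667 to 1732), 76.6 (67.8 to 86.3) and 120.2 (109 to 133) RPM. Here the *KRT19* KO library was the higher one in both fractions. *CBX5* ranked 110 by reads in parental and 19 in *KRT19* KO cytoplasm, and with 53 clusters it had the most 3'UTR clusters of any gene in the *KRT19* KO cytoplasm.

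**Figure D1:**
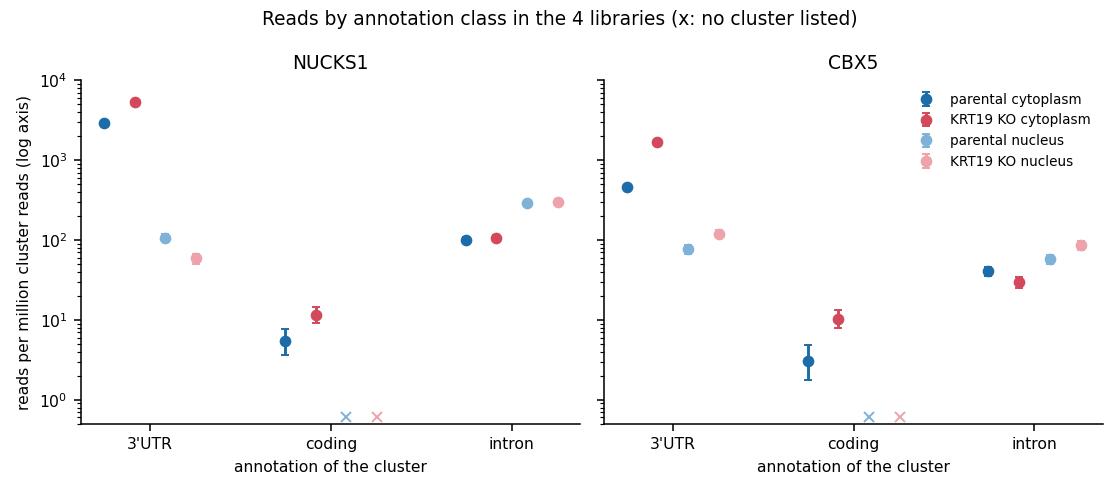
Reads per 1000000 cluster reads (RPM, log axis) of *NUCKS1* and *CBX5* clusters annotated as 3'UTR, coding sequence or intron, one point per library with its 95% counting interval; crosses mark no listed cluster. The 3'UTR points of the cytoplasmic libraries lie above the nuclear ones in both genes, and neither gene had a coding cluster in a nucleus.

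In cytoplasm the 3'UTR held 96.5% (parental) and 97.9% (*KRT19* KO) of the *NUCKS1* reads, but in the nuclei 26.95% (24.6 to 29.3%) and 16.2% (14.2 to 18.5%), where the rest lay in introns. For *CBX5* the shares were 91.3% and 97.7% in the cytoplasm and 57.2% and 58.4% in the nuclei. Most nuclear *CBX5* reads were therefore still in the 3'UTR. Counted by clusters, the 3'UTR shares in the parental and *KRT19* KO cytoplasm were lower, 61.5% and 55.6% for *NUCKS1* and 72.3% and 85.5% for *CBX5*. Coding clusters were few, 3 and 4 for *NUCKS1* and 2 and 2 for *CBX5* in the parental and *KRT19* KO cytoplasm, with at most 72 reads in a gene and library.

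The comparison of *KRT19* KO with parental cytoplasm asks how the share of bound reads in these 3'UTRs differed without K19. *CBX5* 3'UTR RPM were 3.70-fold higher in the *KRT19* KO library (3.54 to 3.86), a log2 ratio of 1.89 (1.82 to 1.95). *NUCKS1* was 1.86-fold higher (1.83 to 1.90), a log2 ratio of 0.90 (0.87 to 0.92), and did not reach 2-fold. Of the 3800 genes with at least 100 3'UTR reads in the 2 libraries, 39.8% were at least 2-fold higher and 10.4% at least 2-fold lower, with a median log2 ratio of 0.70. Against that median, *NUCKS1* differed by 0.20 and *CBX5* by 1.19, and 57.3% and 79.7% of the genes had a lower ratio. Neither gene was thus at an extreme of the distribution. Scaled to 3'UTR reads alone, the log2 ratios were 0.31 (0.28 to 0.34) for *NUCKS1* and 1.30 (1.24 to 1.37) for *CBX5*. Covered length changed with the reads. From parental to *KRT19* KO cytoplasm, *NUCKS1* clusters covered 1261 and 1480 nt, at 12.8 and 22.7 reads per nt, and *CBX5* clusters covered 1116 and 2147 nt, at 2.29 and 4.92 reads per nt. The reads per covered nucleotide of all 3'UTR clusters were 2.69 and 3.23.

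In the nucleus the 2 genes took opposite directions. *NUCKS1* 3'UTR RPM were lower in the *KRT19* KO than in the parental nucleus, with a log2 ratio of -0.87 (-1.13 to -0.62), while those of *CBX5* were higher, with 0.65 (0.42 to 0.88). Neither reached 2-fold, which 21.1% of the 923 genes tested reached upwards and 22.1% downwards around a median of -0.05. In the parental nucleus, *NUCKS1* sites 3758 and 2843 held 139 and 109 of the 380 reads. Neither site had a listed cluster in the *KRT19* KO nucleus. At sites 756 and 1227, listed in both nuclei, *KRT19* KO RPM were not lower, 21.2 against 7.35 and 26.7 against 24.0. The *NUCKS1* direction thus depended on sites without a listed *KRT19* KO nuclear cluster.

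Cytoplasm exceeded nucleus for both genes in both genotypes, and with all sites counted more so in *KRT19* KO cells. In parental cells *NUCKS1* 3'UTR RPM were 27.0-fold higher in the cytoplasm (24.4 to 30.05) and those of *CBX5* 5.99-fold (5.29 to 6.82). In *KRT19* KO cells the ratios were 91.9-fold (79.9 to 107) for *NUCKS1* and 14.1-fold (12.8 to 15.7) for *CBX5*. At least 2-fold higher levels in the cytoplasm were the rule, seen in 83.3% of 2665 genes in parental and 88.4% of 3272 genes in *KRT19* KO cells. The median log2 ratios of all genes were 3.05 and 3.46. *NUCKS1*, at 4.76 and 6.52, lay above them, whereas *CBX5*, at 2.58 and 3.82, lay below the median in parental and above it in *KRT19* KO cells. These ratios depend on the scaling, since 3'UTR reads take different shares of the libraries. Scaled to 3'UTR reads alone, the log2 ratios in parental and *KRT19* KO cells were 2.19 and 3.40 for *NUCKS1* and 0.017 (-0.16 to 0.21) and 0.69 for *CBX5*, which then did not reach 2-fold in either genotype. Over sites listed in both libraries alone, the *NUCKS1* log2 ratio in *KRT19* KO cells was 4.13, and those of *CBX5* were 2.93 and 2.98. The sites so counted were not the same in parental and *KRT19* KO cells.

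**Figure D2:**
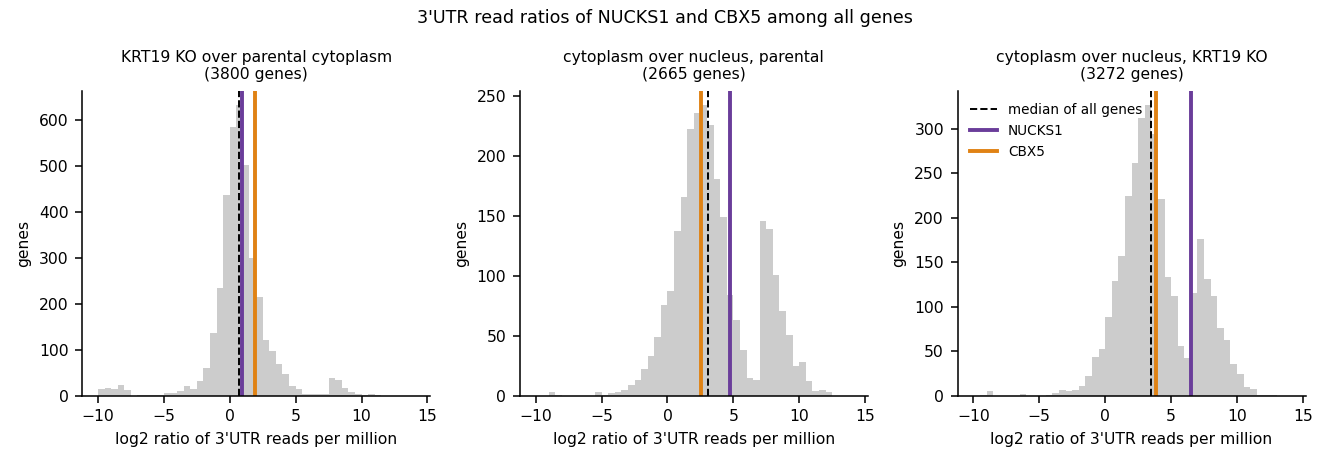
Distribution over genes of the log2 ratio of 3'UTR RPM in 3 comparisons, with counts of genes on the y axis, the median of all genes dashed and *NUCKS1* and *CBX5* as coloured lines. Genes with no 3'UTR cluster in 1 of the libraries make up the separate humps at the ends. *NUCKS1* lies right of the median in each panel, and *CBX5* lies left of it only in parental cytoplasm over nucleus.

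The introns of the same genes behaved otherwise. *NUCKS1* introns had 555, 658, 1030 and 985 reads in the parental cytoplasm, *KRT19* KO cytoplasm, parental nucleus and *KRT19* KO nucleus, or 99.97, 106, 291 and 303 RPM. *CBX5* introns had 225, 183, 203 and 278 reads, or 40.5, 29.4, 57.4 and 85.5 RPM. The intron levels were higher in the nuclei for both genes, the reverse of the 3'UTRs. Between the cytoplasmic libraries the log2 ratio of *KRT19* KO over parental was 0.08 (-0.08 to 0.25) for *NUCKS1*, an interval that includes no difference, and -0.46 (-0.75 to -0.17) for *CBX5*. Neither was 2-fold lower, as 37.4% of 5062 genes were, and both lay above the median of -0.72. Cytoplasm over nucleus, the intron log2 ratios were -1.54 and -1.52 for *NUCKS1* in parental and *KRT19* KO cells and -0.50 and -1.54 for *CBX5*. At least 2-fold lower cytoplasmic levels in introns were found for 48.2% of 5857 genes in parental and 74.7% of 5256 genes in *KRT19* KO cells, and 3 of the 4 member values were among them.

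Intron sites were also shared in another way. Of 54 merged *NUCKS1* intron sites, 44 were listed in at least one nucleus, 12 in both nuclei and 8 in both cytoplasms. The strongest, at chr1:205716291-205716330, had 154, 119, 281 and 193 reads in the parental cytoplasm, *KRT19* KO cytoplasm, parental nucleus and *KRT19* KO nucleus. Of 37 *CBX5* intron sites, 27 were listed in a nucleus, 1 in both nuclei and 2 in both cytoplasms. Their read counts were small, and the site with the most, at chr12:54667302-54667338, had 0, 118, 45 and 51 reads.

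Along the 3'UTR, *NUCKS1* reads were concentrated and *CBX5* reads were spread. Sites covered 35.5% of the *NUCKS1* 3'UTR, at 7.88 per kb, and 23.4% of the *CBX5* 3'UTR, at 5.83 per kb. A single *NUCKS1* site, 3758, held 48.1% (parental) and 63.3% (*KRT19* KO) of the cytoplasmic 3'UTR reads, and the 3 leading sites of each library held 83.3% and 88.6%. In *CBX5* the leading site held 34.7% (parental, site 1121) and 19.98% (*KRT19* KO, site 66), and the 3 leading sites 55.1% and 48.2%. It took 5 *NUCKS1* sites to reach 90 percent of the parental reads and 4 of the *KRT19* KO reads, but 16 and 21 *CBX5* sites. The median *NUCKS1* site had 26.5 and 35 reads in the 2 cytoplasmic libraries, and the median *CBX5* site 35 and 67.

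**Figure D3:**
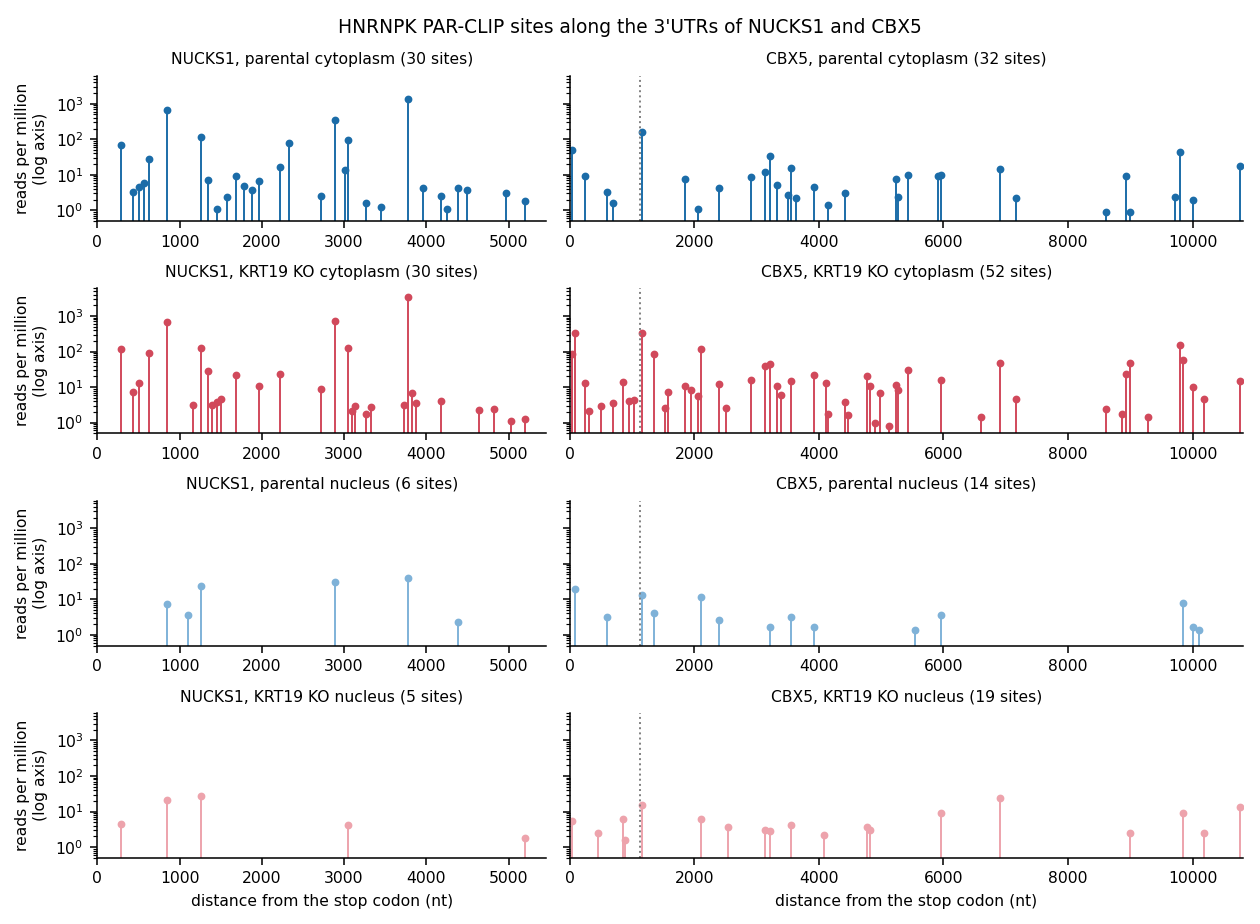
Merged sites along the 3'UTRs of *NUCKS1* (left) and *CBX5* (right) in the 4 libraries, with the distance of the site's centre from the stop codon on the x axis and RPM on a log y axis. The dotted line marks the end of the short *CBX5* 3'UTR at 1130 nt. Sites number 30 and 30 for *NUCKS1* and 32 and 52 for *CBX5* in the parental and *KRT19* KO cytoplasm, and 6, 5, 14 and 19 in the nuclei.

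With each 3'UTR cut into 4 equal parts, sites were found in every part, with unequal reads. In *NUCKS1* the part from 2730 to 4093 nt, which holds sites 2843 and 3758, took 64.1% of parental and 79.0% of *KRT19* KO cytoplasmic reads, and the last part took 0.570% and 0.205% in spite of its 9 sites. In *CBX5* the first part took 51.3% and 61.9%. The longest stretch of the *CBX5* 3'UTR without a site in any library ran for 1400 nt, from 7192 to 8591 nt, and that of *NUCKS1* for 338 nt, from 2362 to 2699 nt. Of the 63 *CBX5* sites, 51 had their mode beyond the end of the short transcript, in sequence that only the long transcript carries, and these held 86.2% of parental and 72.5% of *KRT19* KO cytoplasmic 3'UTR reads. Site 1121 ran from 1121 to 1198 nt and so crossed that end at 1130 nt.

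The cytoplasmic libraries shared many of these sites. Of the 30 *NUCKS1* sites listed in each cytoplasmic library, 18 were common, which is 60.0% of either list. For *CBX5*, 27 sites were common, 84.4% of those listed in parental (32) and 51.9% of those in *KRT19* KO cytoplasm (52). Over the 3'UTR sites of all genes these shares were 47.6% and 35.9%. At the common sites the read counts followed each other, with a Spearman's rho of 0.98 over 18 *NUCKS1* sites and 0.75 over 27 *CBX5* sites, given as a description of sites that share their libraries.

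Most common sites had a higher RPM in the *KRT19* KO cytoplasm. With at least 20 reads in the 2 libraries, 9 of 17 *NUCKS1* sites (52.9%) and 16 of 26 *CBX5* sites (61.5%) were at least 2-fold higher and none was 2-fold lower, while among 9479 such sites of all genes 29.5% were higher and 8.04% lower. The median log2 ratios were 1.00 for *NUCKS1* and 1.12 for *CBX5*, against 0.46 for all sites. The range ran from -0.02 to 1.98 in *NUCKS1* and from -0.19 to 5.74 in *CBX5*. Sites of a gene share its mRNA and the 2 libraries, so these counts describe sites and are not independent observations.

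Single sites of *NUCKS1* differed. Site 3758 (chr1:205683603-205683650) had 7763 reads in the parental cytoplasm, 21287 in the *KRT19* KO cytoplasm, 139 in the parental nucleus and 0 in the *KRT19* KO nucleus. Its log2 ratio between the cytoplasmic libraries was 1.29 (1.25 to 1.33). Site 2843 (chr1:205684469-205684565) had 1943, 4359, 109 and 0 reads in the same order and a log2 ratio of 1.00 (0.93 to 1.08). Both sites were thus listed in the parental nucleus and absent from the *KRT19* KO nuclear list. Site 756 (chr1:205686465-205686652) had 3740, 4130, 26 and 69 reads and a log2 ratio of -0.02 (-0.08 to 0.04), so its level was about equal in the cytoplasm and its share of the gene's 3'UTR reads was 23.2% (parental) and 12.3% (*KRT19* KO). Site 1227 (chr1:205686118-205686181) had 630, 762, 85 and 87 reads, and in both nuclei it was among the 3 strongest, with 22.4% and 45.5% of the reads. Site 3025 (chr1:205684345-205684383) had 515, 780, 0 and 14 reads. Among the sites with the largest gain of share, site 609 (chr1:205686748-205686799) had 155 and 549 cytoplasmic reads, a log2 ratio of 1.66 (1.40 to 1.93). Site 2307 (chr1:205685047-205685101) had 424 reads in the parental cytoplasm and no cluster in any other library, the only *NUCKS1* site of at least 100 reads in a cytoplasmic library that the other did not list.

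In *CBX5*, several strong sites were listed in the *KRT19* KO but not in the parental cytoplasm. Site 66 (chr12:54635423-54635473), shortly after the stop codon, had 0 reads in the parental cytoplasm, 2110 in the *KRT19* KO cytoplasm, 71 in the parental nucleus and 0 in the *KRT19* KO nucleus. Site 2082 (chr12:54633420-54633457) had 0, 746, 40 and 20 reads, and site 1337 (chr12:54634165-54634202) 0, 520, 15 and 0. All 3 were therefore listed in parental cells, in the nucleus. No cluster of any name overlapped them on that strand in the parental cytoplasm. The tables list only clusters that passed the caller, so 0 means no listed cluster and sets no limit on the reads, and whether the caller passed over reads there was not tested. In all, 5 of 16 *CBX5* sites with at least 100 reads in the *KRT19* KO cytoplasm, and 0 of 10 in *NUCKS1*, had no parental cytoplasmic cluster, against 28.4% of 4980 such sites of all genes. In the other direction this held for 1 of 8 *NUCKS1* and 0 of 4 *CBX5* sites, against 16.4% of 3107.

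Sites listed in the *KRT19* KO cytoplasm alone of the 2 held 4471 of the 10563 *CBX5* reads there, but 236 of the 33621 *NUCKS1* reads. Over common sites alone the *CBX5* log2 ratio of *KRT19* KO over parental cytoplasm was 1.16 (1.09 to 1.23) in place of 1.89, and that of *NUCKS1* 0.95 (0.92 to 0.98) in place of 0.90. The 2 genes were then much closer to each other.

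The other leading *CBX5* sites were common to both cytoplasms. Site 1121 (chr12:54634341-54634418) had 886, 2064, 46 and 49 reads and was one of 4 *CBX5* sites listed in all 4 libraries. Its log2 ratio was 1.06 (0.94 to 1.17), and it held 34.7% of the gene's parental and 19.5% of its *KRT19* KO cytoplasmic 3'UTR reads. Site 9777 (chr12:54625717-54625762), near the far end of the 3'UTR, had 246, 921, 0 and 0 reads and a log2 ratio of 1.74 (1.54 to 1.95). Site 2 (chr12:54635486-54635537), directly after the stop codon, had 274, 524, 0 and 18 reads, and site 3162 (chr12:54632274-54632377) 191, 278, 6 and 9. Their log2 ratios were 0.77 (0.56 to 0.99) and 0.38 (0.11 to 0.65), the smaller ones among the leading sites.

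**Figure D4:**
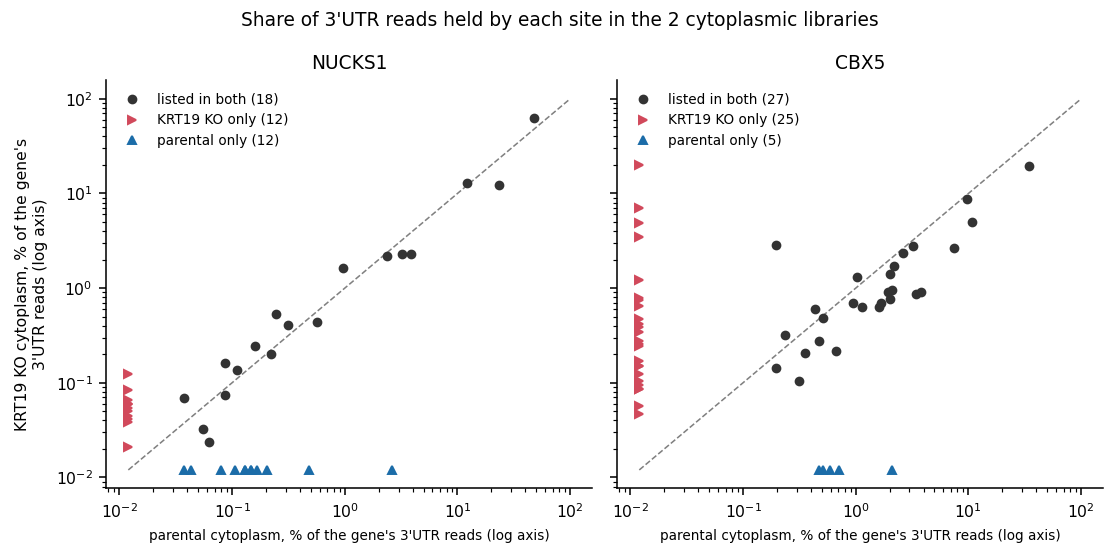
Share of the gene's 3'UTR reads held by each site in the parental (x) and *KRT19* KO (y) cytoplasm, both on log axes, with a dashed line of equal share. Triangles at the margin mark sites listed in only 1 of the 2 libraries, 12 and 12 for *NUCKS1*, 25 in the *KRT19* KO and 5 in the parental library for *CBX5*. The *NUCKS1* points follow the line, and most *CBX5* points listed in both libraries lie below it; sites listed in the *KRT19* KO library alone hold 42.3% of its reads.

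Few 3'UTR sites were listed in the nuclei. In *NUCKS1*, 9 of 43 sites had a nuclear cluster, 2 in both nuclei, and 8 of the 9 also had a cytoplasmic one. In *CBX5*, 27 of 63 had a nuclear cluster, 6 in both nuclei, and 21 of the 27 also a cytoplasmic one. The 2 *NUCKS1* sites found in all 4 libraries were 756 and 1227. At the nuclear totals of 191 to 391 reads a gene, a site with a small share may have gone without a cluster.

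T-to-C changes, the mark of the crosslink, were less frequent in *NUCKS1* than in *CBX5*. In the parental cytoplasm 43.3% (42.6 to 44.1%) of *NUCKS1* 3'UTR reads carried one, and in the *KRT19* KO cytoplasm 43.6% (43.0 to 44.1%). For *CBX5* the shares were 61.8% (59.9 to 63.7%) and 60.2% (59.3 to 61.2%), and for all 3'UTR reads 53.4% and 55.1%. *NUCKS1* thus lay below and *CBX5* above the 3'UTR reads at large, and neither differed by more than 2 points between the genotypes. The *NUCKS1* value rested on site 3758, where 33.7% (32.7 to 34.8%) and 37.9% (37.2 to 38.5%) of reads carried the change. Without that site the *NUCKS1* shares were 52.2% and 53.4%. Among the sites of at least 100 reads the shares ran from 33.7% to 59.4% and from 37.9% to 62.1% in *NUCKS1* and from 54.1% to 64.8% and from 46.0% to 77.0% in *CBX5*, parental and *KRT19* KO cytoplasm in turn.

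In the nuclei the 3'UTR shares were 62.6% (57.6 to 67.5%) and 66.5% (59.3 to 73.1%) for *NUCKS1* and 77.9% (72.4 to 82.7%) and 69.3% (64.5 to 73.9%) for *CBX5* in parental and *KRT19* KO cells. Pooled over a gene's reads, they were higher than in the cytoplasm for both genes, as they were for all 3'UTR reads (65.8% and 69.3%). With at least 2 conversion locations, parental *CBX5* had 64.3% in the nucleus and 61.7% in the cytoplasm. Single *NUCKS1* sites differed, and site 756 went in opposite directions in the 2 genotypes. Nucleus against cytoplasm, sites 3758 and 2843 had 56.1% against 33.7% and 48.6% against 48.8% in parental cells. Sites 1227 and 756 had 70.6% against 59.2% and 100% against 52.2% in parental cells, where site 756 had only 26 nuclear reads. In *KRT19* KO cells these 2 sites had 79.3% against 62.1% and 33.3% against 54.8%. In the introns 59.6% and 67.2% of cytoplasmic and 67.5% and 65.6% of nuclear *NUCKS1* reads, and 61.3% and 69.4% of cytoplasmic and 66.0% and 74.8% of nuclear *CBX5* reads, carried the change. The intron shares of *NUCKS1* in the cytoplasm were thus above those of its 3'UTR.

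**Figure D5:**
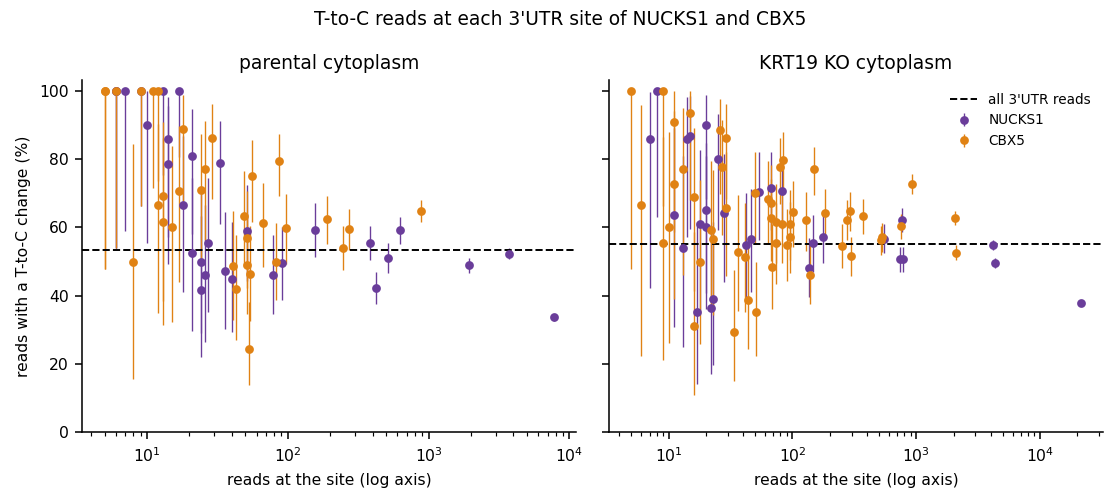
Share of reads with a T-to-C change at each 3'UTR site against the reads at the site (log axis) in the 2 cytoplasmic libraries, with 95% counting intervals; the dashed line is the share over all 3'UTR reads, 53.4% and 55.1%. Sites of few reads scatter widely, up to 100%, and the *NUCKS1* site with the most reads lies lowest among the sites of at least 100 reads, at 33.7% and 37.9%.

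Cytosine runs, the kind of sequence HNRNPK is known to prefer, were looked for as CCC on the transcript strand in 30 nt around each cluster's mode. In the parental and *KRT19* KO cytoplasm CCC occurred in 25% and 23.3% of *NUCKS1* windows and in 38.2% and 41.5% of *CBX5* windows, against 30.6% and 31.4% over all 3'UTR clusters. With 30 to 53 windows a gene, each of the 4 intervals includes the value over all clusters. Windows of the same length that were cut along the 3'UTR and touched by no site held CCC in 9.64% (4.25 to 18.1%) of 83 in *NUCKS1* and 22.8% (17.4 to 28.8%) of 224 in *CBX5*, and windows touched by a site in 17.3% (10.4 to 26.3%) of 98 and 36.8% (28.7 to 45.5%) of 136. CCC was thus more frequent where sites lay in both genes, with intervals that overlap. UUU was frequent throughout, in 80.6% of touched and 63.9% of untouched *NUCKS1* windows and in 63.2% and 54.9% of *CBX5* windows. UCCC and CCCC, which both contain CCC, occurred in 11.2% and 6.12% of touched *NUCKS1* windows and in 16.9% and 11.0% of touched *CBX5* windows, against 6.02% and 1.20% and 10.3% and 4.02% of untouched ones.

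Guanosine went the other way. It made up 17.3% of the bases in touched and 21.6% in untouched *NUCKS1* windows, and 16.2% and 23.3% in *CBX5*. RNase T1 cuts after guanosine, and its part in this difference was not tested.

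By reads, sites with CCC in their window held 30.2% of parental and 17.9% of *KRT19* KO cytoplasmic 3'UTR reads in *NUCKS1* and 56.7% and 64.8% in *CBX5*. Single sites decided these values. Without site 3758 the *NUCKS1* values were 58.2% and 48.7%, and without site 1121 the *CBX5* values were 33.7% and 56.3%. Site 3758 has no CCC in its window and site 1121 has it. Leaving them out could therefore only raise the *NUCKS1* values and lower those of *CBX5*. In parental cells *CBX5* was then the lower of the 2 genes, an order from which nothing is concluded.

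*LPP*, *TEAD1* and *CDK6*, the genes next to the pair by 3'UTR clusters in the parental cytoplasm, served for comparison. Their log2 ratios of 3'UTR reads in *KRT19* KO over parental cytoplasm were 0.18 (0.12 to 0.24), 0.42 (0.37 to 0.47) and 1.05 (0.99 to 1.11), all below the 1.89 of *CBX5*, and *CDK6* above the 0.90 of *NUCKS1*. Their 3'UTRs held 61.9%, 53.9% and 70.2% of the gene's parental cytoplasmic reads, against 96.5% for *NUCKS1* and 91.3% for *CBX5*. These 3 genes carried 93 to 176 intron clusters in that library, and *NUCKS1* and *CBX5* carried 17 and 11.

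The genes whose 3'UTR pattern over the 4 libraries was most like each member were found by the Euclidean distance of centred log2 RPM (1 added) among 310 genes with at least 10 3'UTR clusters in each cytoplasmic library. For *NUCKS1* the closest 3 included *VCPIP1* (distance 0.39) and *KCTD12* (0.63), against a median of 2.68. For *CBX5* they were *PPM1A* (0.23), *SYNCRIP* (0.34) and *ANKRD40* (0.48), against 1.74. *PPM1A*, for example, had 170.0, 535, 27.7 and 46.1 RPM in the parental and *KRT19* KO cytoplasm and the parental and *KRT19* KO nucleus.

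Other genes of the same pathways were taken from lists made by function. Of 22 genes for HP1 proteins and H3K9 methylation, 16 had a 3'UTR cluster in a cytoplasmic library and 9 had the 100 reads needed for a ratio. Of these, 4 were at least 2-fold higher in the *KRT19* KO cytoplasm, which are *CBX5* itself, *CBX1* (HP1β, log2 ratio 1.03), the H3K9 methyltransferase *SUV39H2* (1.50) and *POGZ* (1.74), a zinc finger protein that binds HP1. With 4 of 9 higher and 1 of 9 lower, the list was near the 39.8% and 10.4% of all genes. The lower one was *EHMT2*, another H3K9 methyltransferase, which had 170 reads in parental and no cluster in *KRT19* KO cytoplasm. *CBX3*, which encodes HP1γ, had 211 and 207 RPM, a log2 ratio of -0.03, and the lamin B receptor *LBR*, which binds HP1, had -0.36. The 3 HP1 genes therefore did not share 1 ratio. The median over the 9 genes was 0.93, and 0.45 without *CBX5*, against 0.70 for all genes.

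Among the Polycomb *CBX* genes, whose chromodomains bind methylated lysine 27 of histone H3, *CBX6* (2.19) and *CBX8* (3.19) were at least 2-fold higher. *CBX6* had 7 clusters in parental and 24 in *KRT19* KO cytoplasm, and *CBX8* had 27 parental reads. Of 16 genes of homologous recombination, 11 had a cluster and 6 a ratio. The 2-fold mark was passed upwards by *BARD1* (2.43), the partner of BRCA1, and by *XRCC2* (3.52) and *XRCC3* (1.35), which act in strand exchange, and by none downwards. These 3 of 6 stood against 39.8% of all genes upwards and 10.4% downwards, too few genes to tell the list from the rest. *NBN*, a subunit of the MRE11 complex, had 0.35 and *RAD54B* -0.14. The median of the 6 was 1.12, and 1.35 without *NUCKS1*.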

How the data were processed

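HNRNPK-bound RNA was measured by PAR-CLIP in 4 libraries, 1 per genotype and fraction; the 17 RNA-seq samples were not analysed here. According to the methods, the authors demultiplexed reads with Bcl2fastq and cutadapt, removed PCR duplicates by molecular identifiers, aligned to hg19 and called clusters with PARalyzer in PARpipe. The labels also name a later build, but the cluster sequences were equal to GRCh37. The authors deposited raw counts per cluster, not normalized, of all reads, of distinct reads, of T-to-C positions and of reads carrying a T-to-C change. The fraction, score and log10 columns were not used.

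The members and gene lists were chosen with earlier results of these data known. Some genes of the lists are not reported here. Sites, sums and shares were computed with Python 3.11.15, pandas 2.3.3, numpy 2.4.6 and scipy 1.17.1. Reads were scaled to 1000000 reads in a library's clusters (RPM; 3252800 to 6216226 reads), and 0.5 reads were added to each count before a gene's log2 ratio. Intervals are exact 95% Poisson or Clopper-Pearson intervals, for ratios conditional on the summed count. Called means at least 2-fold. Named sites were the 5 with the most reads and, among sites of at least 20 cytoplasmic reads, the 3 with the largest gain and the 3 with the largest loss of share. Ratios and site merging were tested on simulated data. Alternatives covered cluster minimums, unique reads, library totals, the leading site, the overlap rule and, chosen after seeing the data, common sites only.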

Additional observations from a re-analysis of the deposited data

Results flagged for a closer look

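*NUCKS1* 3'UTR reads per library total were higher in the cytoplasm of *KRT19* KO than of parental cells, with a log2 ratio of 0.90, and lower in the nucleus, with -0.87, so the single libraries of the 2 fractions moved in opposite directions. *CBX5* intron reads did the reverse, with -0.46 in the cytoplasm and 0.57 in the nucleus. Neither difference between the fractions was tested, since each condition had 1 library. The nuclear *NUCKS1* value depended on sites 3758 and 2843, which had no listed cluster in the *KRT19* KO nucleus. At sites 756 and 1227, listed in both nuclei, *KRT19* KO RPM were not lower. Ratios between the nuclei were not computed under the alternatives below.

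Some clusters at the 2 loci carried another name or none and entered no comparison above. On the *NUCKS1* strand, about 1 kb past the annotated end of the gene, an unannotated cluster was listed in each library, with 16 reads in the parental cytoplasm, 6 in the *KRT19* KO cytoplasm, 25 in the parental nucleus and 22 in the *KRT19* KO nucleus. A cluster of 9 reads inside the *NUCKS1* gene was named SNORA72 in the parental cytoplasm. Past the end of *CBX5* the parental nucleus listed an unannotated cluster of 5 reads, and inside the *CBX5* 3'UTR the *KRT19* KO nucleus listed a cluster of 8 reads named MIR3198-2. The tables list no cluster of under 5 reads, so no level below that can be read from them.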

How the results depend on the processing

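None of the 6 ratios of 3'UTR reads turned negative under an alternative, but that of *CBX5* in parental cytoplasm over nucleus came to no difference with the library total of 3'UTR reads (-0.16 to 0.21). For *NUCKS1* in *KRT19* KO over parental cytoplasm the log2 ratio was 0.71 with unique reads, 0.31 with the library total of 3'UTR reads, 0.84 without each library's top cluster, 0.39 without the leading site and 0.95 over common sites. For *CBX5* it was 1.95 with at least 2 conversion locations, 1.79 with unique reads, 1.30 with the 3'UTR total, 2.19 without the leading site and 1.16 over common sites. For *NUCKS1* in cytoplasm over nucleus the values for parental and *KRT19* KO cells were 2.19 and 3.40 with the 3'UTR total and 4.47 and 5.07 without the leading site. Over common sites they were 4.61 and 4.13, the reverse order, but the common sites were not the same in the 2 genotypes. Sites 3758 and 2843 counted in parental cells only, since the *KRT19* KO nucleus listed no cluster there. In *KRT19* KO cells the value was 6.77 with at least 2 conversion locations. For *CBX5* it was 2.77 and 3.99 with at least 10 reads, 3.20 and 4.28 with at least 2 conversion locations, 0.017 and 0.69 with the 3'UTR total, 2.93 and 2.98 over common sites, and in parental cells 2.23 without the leading site. The numbers of sites stayed within 1.5 times except for *NUCKS1* sites in both cytoplasms, 10 when modes had to lie within 10 nt. The cause of these shifts was not tested beyond what each setting leaves out. Shares of single libraries moved beyond their counting interval in 21 of 48 cases. No paired analysis was possible because each condition had 1 library. Depth limits the nuclear 3'UTR values, with 191 to 391 reads a gene, and the absence of replicates limits all values.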
